A study of Mus musculus with 4 samples.

Results

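Mitosis is driven by the kinase Cdk1, whose activity is set by activating phosphatases of the Cdc25 family, inhibitory kinases and the Aurora and Polo-like kinases. The anaphase-promoting complex (APC/C), a ubiquitin ligase, then destroys securin and cyclins, so that sister chromatids part, the spindle elongates and the cell divides. In proliferating cells many of these genes are transcribed in G2 and M phase, and they are repressed when myoblasts leave the cell cycle to form muscle. Measured here were 39 genes of a list of 46 mitotic regulators, spindle and cytokinesis genes, out of 14806 genes on the arrays. A gene was a member when a row of the deposited table carried its symbol and no other, and the brightest row over the 4 arrays stood for a gene with several rows. Cks1b and Foxm1 shared their rows with other genes and are not reported, and Ube2s, Ckap5, Troap, Depdc1a and Lmnb1 were not analysed here.

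The cells were C2C12, a mouse myoblast line, and total RNA was hybridised to 4 Affymetrix arrays. The 2 differentiation arrays came from cells moved at 100% confluency to medium with 2% horse serum and collected 24 h later. This switch of medium is recorded as made after 10 h. The 2 growth arrays came from cells in 10% fetal bovine serum collected at 60 to 70% confluency. Serum and density changed along with the state of the cells, so serum, density and differentiation cannot be told apart here. The series text names 2 biological replicates per condition without describing the cultures, and the tests measure the spread between these arrays, which may be technical. The comparison asks how the mitotic genes stand in cells that have begun to differentiate.

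Each array held 16658 intensities, 1 per transcript cluster, with medians of 174.1 and 170.0 in differentiation and 167.8 and 177.2 in growth. Log2 intensities correlated over clusters at 0.986 between the differentiation arrays, 0.984 between the growth arrays and 0.939 to 0.951 across conditions. The myogenic markers Myod1, Myf5, Des, Cdh15 and Myog were present, with summed intensities of 9926 and 10310.0 in differentiation and 6038 and 6119 in growth. Of these, Myod1, Cdh15 and Myog passed the test as higher, while Myf5 and Des did not pass. A set of 8 markers of endothelial, leukocyte and epithelial cells served to show what a gene that myoblasts lack reads on these arrays. Their values lay between 4.87 and 128.7 in differentiation and between 21.4 and 197.8 in growth. Their sums were 482.5 and 615.7 in differentiation, against 854.5 and 607.9 in growth. None was at 0, and 2 of the 8, the leukocyte genes Ptprc and Cd68, passed the test as lower. Of 3 adipocyte markers, 1 (Fabp4) passed as lower and none as higher. The part of such cells or of background in the results below was not tested.

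The mitotic genes fell together in differentiation. Of the 39 measured, 38 passed the test as lower and none as higher, where 7.52% of all clusters passed as lower and 8.64% as higher (limma with Benjamini-Hochberg adjustment over all 16658 clusters, threshold 0.05). For all 38 both differentiation arrays lay below both growth arrays, a separation that 30.1% of all clusters showed. The median log2 change of the 39 was -2.42, against -0.01 over all clusters. Each change is the mean log2(intensity + 16) in differentiation minus that in growth, given with its limma standard error (SE); the added 16 makes changes of dim genes look smaller. At least 4-fold falls were found for 33 of the 39, against 1.19% of all clusters, and this number depends on the added 16. In whole cultures, fewer cycling cells and less RNA of these genes per cell cannot be told apart.

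**Figure D1:**
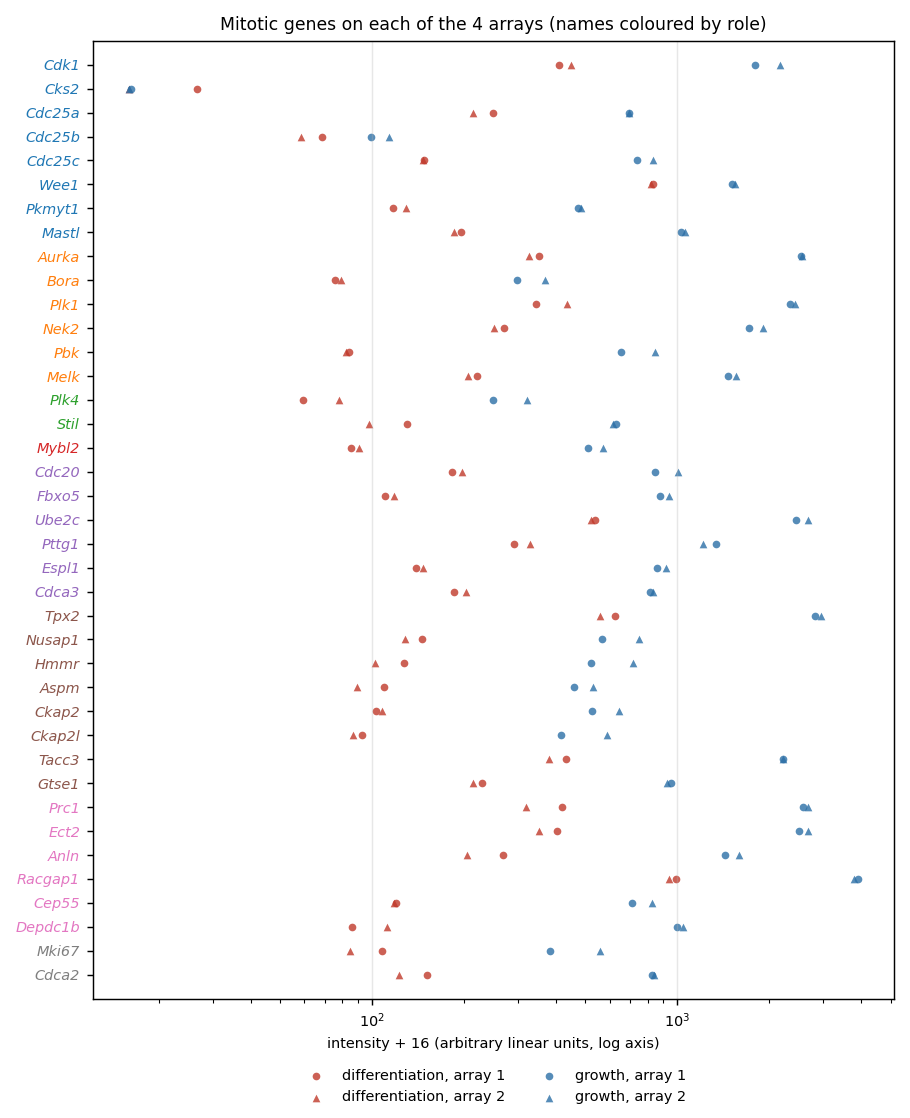
Intensity plus 16 (arbitrary linear units, log axis) of the 39 measured mitotic genes, 1 row per gene, with red points for the 2 differentiation arrays and blue points for the 2 growth arrays; gene names are coloured by role. In 38 rows both red points lie left of both blue points, and only Cks2, at the left edge, overlaps.

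Several members carry, next to their start sites, the letters of a known cell cycle element. The cell cycle genes homology region (CHR), with the letters TTTGAA, is bound by the MuvB complex through its subunit Lin54, and MuvB acts with B-Myb (Mybl2) or FoxM1 as an activator of G2 and M genes or with p130 and E2F4 as a repressor. The neighbouring CCAAT box is bound by the factor NF-Y. RefSeq promoter windows (build GRCm38.p6, 250 bases before to 50 after an annotated start) were available for 31 of the 39 measured members and were searched on both strands. Shown are the 30 bases around TTTGAA, in capitals, for 5 members in which it begins before the start and 25 to 50 bases after a CCAAT on either strand, a choice made after the matches were seen:
Cdk1 promoter (chr10:69352910-69352939, minus strand): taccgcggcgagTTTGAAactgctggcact
Cdc20 promoter (chr4:118437344-118437373, minus strand): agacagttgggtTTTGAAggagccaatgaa
Mki67 promoter (chr7:135716460-135716489, minus strand): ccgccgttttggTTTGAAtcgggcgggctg
Prc1 promoter (chr7:80294434-80294463, plus strand): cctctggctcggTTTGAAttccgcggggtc
Ube2c promoter (chr2:164769888-164769917, minus strand): ccgccgcccgcgTTTGAAttgcaaccctcc
All 5 are printed with TTTGAA read forward, which for Ube2c is the strand opposite to the gene. The nearest upstream CCAAT began 33 bases before the element in Cdk1, 35 in Cdc20, 43 in Mki67, 32 in Prc1 and 28 in Ube2c. The Mki67 element shown begins at position -98 from the start. A second TTTGAA of Mki67, at -116 and 25 bases after a CCAAT, also met this choice and is not shown.

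TTTGAA was found in 18 of the 31 members' windows (58.1%), against 16.9% of the 11854 genes of the array with a window. Within 50 bases of the start the shares were 51.6% of members and 4.38% of all genes. CCAAT was found in 23 of the 31 (74.2%), against 42.4% of all genes, and both letters together in 16 (51.6%), against 6.72%. The 18 members with TTTGAA had a median log2 change of -2.46 and the 13 without it, Cks2 among them, one of -2.25. A match says only that the letters are there, these shares were not tested, and binding was not measured.

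**Figure D2:**
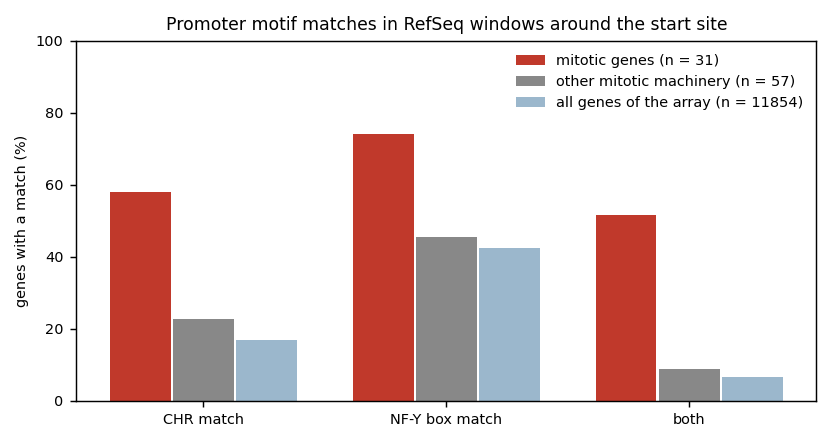
Share of genes (percent, from 0) whose promoter window holds the CHR letters, an NF-Y box or both, for the mitotic genes (red, n = 31), other mitotic machinery (grey, n = 57) and all genes of the array (blue, n = 11854). Both matches together were found in 51.6% of the mitotic genes, 8.77% of the other machinery and 6.72% of all genes.

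Cdk1 and its regulators fell by unequal amounts. Cdk1, the kinase that triggers mitosis, had intensities of 394 and 434 on the differentiation arrays, against 1782 and 2159.8 on the growth arrays. Its log2 change was -2.20 ± 0.19 SE (limma adjusted p = 0.000334), and the groups lay far apart. The phosphatases that activate Cdk1 spread widely. Cdc25c, which acts at entry into mitosis, had 132 and 131 in differentiation, against 719.6 and 817 in growth (-2.41 ± 0.18). Cdc25a, which also acts at the G1/S transition, had 232 and 197 in differentiation, against 679 and 676 in growth (-1.59 ± 0.18). Cdc25b, which starts Cdk1 activation at the centrosome, was dim throughout, at 52.7 and 42.6 in differentiation, against 83.0 and 97.3 in growth.

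Cdc25b passed in the fit of all 4 arrays (-0.74 ± 0.19 SE; limma adjusted p = 0.0367). It did not pass when any 1 array was left out, with adjusted p of 0.0785 without growth replicate 1, 0.109 without growth replicate 2, 0.102 without differentiation replicate 1 and 0.188 without differentiation replicate 2. The kinases that hold Cdk1 inactive fell as well. Wee1, the nuclear inhibitor, kept the highest share of its growth level among the 38 genes that fell, 53.6%, with 816 and 804 in differentiation, against 1496 and 1525 in growth. Its change of -0.89 ± 0.18 (limma adjusted p = 0.0136) passed without growth replicate 2 (0.0464). It failed to pass with growth replicate 1 omitted (0.0553) and with differentiation replicate 1 (0.0858) or replicate 2 (0.0961) omitted. The membrane-bound Pkmyt1 had 101.5 and 113 in differentiation, against 457 and 468 in growth (-1.96 ± 0.18). Thus Wee1 and Cdc25b had the smallest falls of the 38, and whether these differ from the falls of their paralogs was not tested.

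Mastl, the Greatwall kinase that keeps the phosphatase PP2A-B55 inhibited during mitosis, had 180.1 and 169 in differentiation, against 1017 and 1047 in growth (-2.46 ± 0.18 SE). Cks2, a small Cdk-binding subunit, was the only measured member that did not pass. It was listed at 10.7 and 0 in differentiation and at 0.23 and 0 in growth, so its row carried almost no signal in either condition (limma adjusted p = 0.357), below all 8 markers of absent cell types in growth.

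All 6 measured kinases and activators of spindle assembly, centrosome separation and mitotic progression fell at least 4-fold. Aurka, the spindle pole kinase, had 336 and 310.2 in differentiation, against 2532 and 2546 in growth (-2.91 ± 0.18 SE), which is 12.7% of the growth mean. Plk1, the Polo-like kinase needed from mitotic entry to cytokinesis, had 329.6 and 419.6 in differentiation, against 2320.5 and 2421 in growth (-2.62 ± 0.20). A second, dim row of Plk1 also fell, by a smaller amount (-0.80 ± 0.21; limma adjusted p = 0.0394). Bora, the cofactor through which Aurora A activates Plk1, stood at 59.6 and 62.9 in differentiation, against 283 and 352 in growth (-2.10 ± 0.19). The centrosomal kinase gene Nek2 fell by 2.80 on the log2 scale, to 254.9 and 235 in differentiation, against 1705 and 1899.6 in growth.

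Pbk, a mitotic kinase of proliferating cells, read 68.3 and 66.3 in differentiation, against 639.9 and 830.4 in growth (-3.16 ± 0.20 SE). Its differentiation values lay within the range of the markers of absent cell types, so the size of this fall is a value on the offset scale and not a measured residual level. Melk, a kinase gene with high expression in dividing progenitor cells, had 204 and 189.8 in differentiation, against 1450.3 and 1546 in growth (-2.83 ± 0.18). Both genes of centriole duplication fell. Plk4, the kinase that licenses a new centriole, had 43.4 and 62.1 in differentiation, against 233 and 306 in growth (-2.05 ± 0.22). Stil, the scaffold that Plk4 phosphorylates, had 114 and 82.0 in differentiation, against 612 and 601 in growth (-2.46 ± 0.20). The transcription factor gene Mybl2, which encodes the B-Myb that activates G2 and M genes, had 69.2 and 74.8 in differentiation, against 493 and 555 in growth (-2.62 ± 0.18; limma adjusted p = 0.000165).

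All 6 measured members that act with the APC/C or downstream of it fell; its core subunits and Cdh1 are not members and had a median log2 change of -0.09 over 14 genes. Cdc20, the activator that turns on the APC/C at metaphase, had 167 and 182 in differentiation, against 829.8 and 987 in growth (-2.28 ± 0.19 SE). The ubiquitin-conjugating enzyme gene Ube2c had 521 and 505 in differentiation, against 2428 and 2667 in growth (-2.28 ± 0.18). Fbxo5, the Emi1 inhibitor that holds the APC/C off until mitosis, had 94.4 and 101.7 in differentiation, against 863 and 921 in growth. With a change of -2.99 ± 0.18, the gene of an inhibitor fell along with the genes of the activator and the enzyme. Pttg1, which encodes securin, had 277 and 313 in differentiation, against 1322 and 1195 in growth (-2.04 ± 0.18). Espl1, which encodes the separase that securin restrains, had 124 and 131 in differentiation, against 845 and 905 in growth (-2.64 ± 0.18). Cdca3, a cofactor in the destruction of Wee1, had 169.8 and 187 in differentiation, against 798 and 814 in growth (-2.08 ± 0.18).

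The 8 measured spindle genes moved within a narrow band, between -2.09 and -2.46. Tpx2, which activates Aurora A on spindle microtubules, had 611 and 544 in differentiation, against 2816 and 2943 in growth (-2.29 ± 0.18 SE). Tacc3, part of the clathrin-containing cross-links of kinetochore fibres, had 417 and 363 in differentiation, against 2212 and 2211 in growth (-2.46 ± 0.18). The groups stood well apart for both. The microtubule-associated genes Ckap2 and Ckap2l each had a change of -2.46, and Hmmr, which links microtubules to the spindle pole, had one of -2.42 ± 0.22. Aspm, a spindle pole protein known for its role in neural progenitor division and brain size, had -2.32 ± 0.20. Nusap1, which bundles microtubules near chromatin, had -2.25 ± 0.21, and Gtse1, which stabilises spindle microtubules, had the smallest change of the 8, -2.09 ± 0.18. The differentiation means of Nusap1 (121.3), Hmmr (99.0), Aspm (83.0), Ckap2 (89.55) and Ckap2l (73.96) lay below 128.7, the highest value of the markers of absent cell types. The sizes of their falls are therefore values on the offset scale.

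All 6 measured cytokinesis genes fell. Depdc1b was placed in this group, though it is known from human cells to couple the loss of adhesion to entry into mitosis. It had 70.1 and 95.8 in differentiation, against 985 and 1029.5 in growth (-3.38 ± 0.20 SE; limma adjusted p = 0.000158). As for Pbk, its differentiation values lay within the range of those markers. Prc1, which bundles the antiparallel microtubules of the central spindle, had 402 and 303 in differentiation, against 2575 and 2664 in growth (-2.85 ± 0.20). Ect2, the exchange factor that activates RhoA at the division plane, had 388 and 338 in differentiation, against 2486 and 2664 in growth (-2.78 ± 0.18). Racgap1, a subunit of the centralspindlin complex, had a smaller change than Ect2. It read 976 and 922 in differentiation, against 3894 and 3766 in growth (-1.996 ± 0.18), which is 24.8% of the growth mean. Anln, the anillin scaffold of the contractile ring, had 253 and 189 in differentiation, against 1421 and 1584 in growth (-2.69 ± 0.20). Cep55, which recruits the abscission machinery to the midbody, had 104.1 and 101.7 in differentiation, against 695 and 810.2 in growth (-2.69 ± 0.18).

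On the chromosome surface, Mki67, which coats mitotic chromosomes and serves as a proliferation marker, had 91.5 and 68.7 in differentiation, against 367 and 542 in growth (-2.28 ± 0.24 SE; limma adjusted p = 0.000790). Cdca2, the Repo-Man subunit that brings the phosphatase PP1 to anaphase chromatin, had 136 and 106.1 in differentiation, against 811 and 822 in growth (-2.61 ± 0.19). Mki67 thus had the largest SE of the 38 genes that fell, and its growth arrays stood farthest apart.

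**Figure D3:**
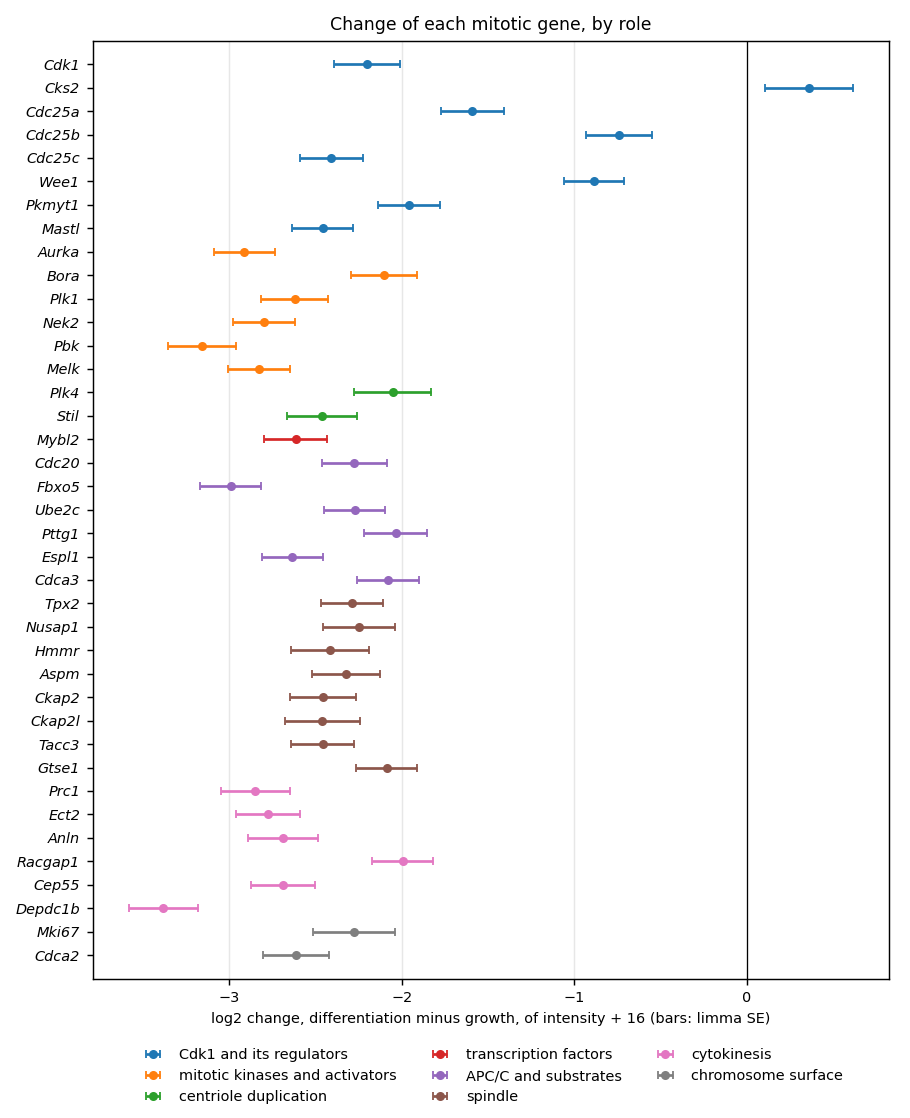
Log2 change, differentiation minus growth, of each measured mitotic gene, with the limma standard error as a bar and colours for 8 roles. The changes run from -3.38 (Depdc1b) to -0.74 (Cdc25b), with Cks2 alone right of 0.

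The replicates of a condition also differed from each other in the mitotic genes. Growth replicate 2 was higher than replicate 1 for 32 of the 39 members, against 59.8% of all clusters, with a median log2 difference of 0.10, against 0.07 for all clusters. The gap was widest for Mki67 (0.54), Ckap2l (0.50), Hmmr (0.46) and Nusap1 (0.41), and under 0.01 in size for Cdc25a, Aurka and Tacc3. In differentiation, replicate 2 was lower for 26 of the 39, against 52.4% of all clusters, with a median of -0.08 against -0.02 for all clusters. These gaps were small beside the falls between conditions. For 36 of the 39 members the limma adjusted p stayed at or below 0.0289 in every alternative tried, including the omission of any 1 array.

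The levels of the members were set beside those of the markers of absent cell types. In differentiation, 19 of the 39 members had a mean below 128.7, a share near the 44.1% of all clusters. That cut is the highest value of the 8 markers on those arrays, whose medians were 174.1 and 170.0. In growth, 2 members, Cdc25b and Cks2, had a mean below 197.8, the highest value of these markers there, against 53.0% of all clusters. With the 3 adipocyte markers added, whose highest values were 233 in differentiation and 357 in growth, the numbers were 27 and 4 of the 39 members, against 56.2% and 65.9% of all clusters. The arrays carry no detection call, so residual transcripts of Pbk, Depdc1b or Plk4 in differentiation could not be told from background, while Racgap1, Wee1, Tpx2 and Ube2c stayed above 500 on both differentiation arrays.

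**Figure D4:**
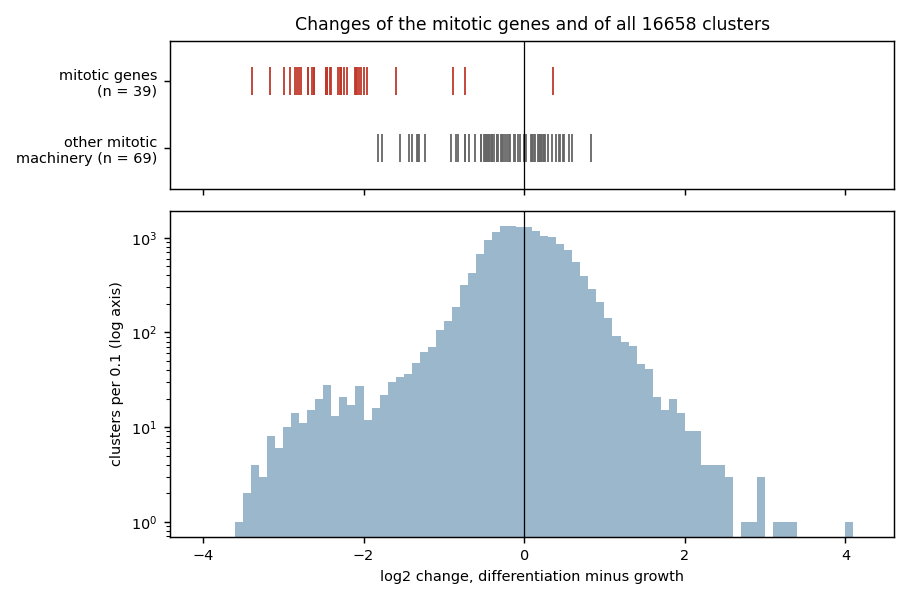
Top: log2 change, differentiation minus growth, of the 39 mitotic genes (red) and 69 other genes of the mitotic machinery (grey), 1 tick per gene. Bottom: all 16658 clusters in steps of 0.1 (counts on a log axis). The mitotic genes have a median of -2.42 and the other machinery one of -0.26.

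The lists of core machinery examined beside the members changed less. No list covers kinetochore, cohesin, condensin or kinesin genes, so the lists do not stand for all mitotic machinery. Of 80 further genes in 7 lists, 69 were measured, 15 fell (21.7%, against 7.52% of all clusters) and 1 rose, with a median log2 change of -0.26. None fell 4-fold. With 1 array left out, 7 to 9 fell and at most 1 rose. For the APC/C core and its activator Cdh1, 1 of 14 passed. That gene, Fzr1, which encodes Cdh1, had 529 and 588 in differentiation, against 897 and 922 in growth (-0.69 ± 0.18 SE; limma adjusted p = 0.0377), and did not pass with any 1 array left out (0.0941 to 0.166). The median of the 14 was -0.09, against -0.01 over all clusters, with single changes from -0.69 (Fzr1) to 0.60 (Anapc13). The genes of the activator Cdc20, the enzyme Ube2c and the inhibitor Fbxo5 had changes of -2.28, -2.28 and -2.99.

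In the SCF ubiquitin ligase, which marks Wee1, Bora and Emi1 for destruction, 1 of 7 genes fell and 1 rose. Skp2, the F-box subunit that targets the Cdk inhibitor p27, had 485 and 425 in differentiation, against 1198 and 1120.0 in growth (-1.32 ± 0.18 SE; limma adjusted p = 0.00291). Cul1, the scaffold, had 1585 and 1531 in differentiation, against 757 and 995 in growth (0.83 ± 0.20; limma adjusted p = 0.0289). The call of Cul1 held with growth replicate 2 left out (0.0291) and not with any other array left out (up to 0.144). Among the phosphatases of mitotic exit and their inhibitors, 1 of 10 fell. It was the PP2A scaffold gene Ppp2r1b (-0.82 ± 0.19; limma adjusted p = 0.0251), which did not pass with any 1 array left out (0.0618 to 0.155).

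Of the MuvB complex, 2 of 4 measured genes fell. Lin9 had 177 and 196 in differentiation, against 654 and 744 in growth (-1.82 ± 0.18 SE; limma adjusted p = 0.000674). Lin54, the subunit that contacts the CHR, had 393 and 442 in differentiation, against 992 and 1014 in growth (-1.24 ± 0.18; adjusted p = 0.0037 by limma, 0.0514 without differentiation replicate 1). Lin37 (-0.17 ± 0.18) and Rbbp4 (0.08 ± 0.21) did not pass. Lin37 was dim throughout, at 46.6 and 46.2 in differentiation, against 55.5 and 53.2 in growth. These values lay within the range of the markers of absent cell types. The genes that nucleate spindle microtubules, the gamma-tubulin ring and augmin, had 6 of 12 lower and none higher. They were led by the augmin genes Haus6 (-1.77 ± 0.20), Haus1 (-1.40 ± 0.18) and Haus8 (-1.44 ± 0.22) and by the gamma-tubulin gene Tubg1 (-1.31 ± 0.19), while Haus2 had a change of 0.00 ± 0.19. Haus2 was dim, at 143 and 130 in differentiation, against 125 and 147 in growth, and its growth values lay within the range of those markers. Haus8 did not pass without differentiation replicate 2 (adjusted p up to 0.0623 by limma), nor Tubg1 without differentiation replicate 1 (0.0514).

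Of 17 genes of the contractile ring and abscission, 2 fell. Cit, the citron kinase of the midbody, had 348 and 271 in differentiation, against 913 and 943 in growth (-1.55 ± 0.20 SE; limma adjusted p = 0.00196), while a second, dim row of the gene did not pass (-0.77 ± 0.24; limma adjusted p = 0.0649). The septin gene Septin6 had -0.74 ± 0.18 (limma adjusted p = 0.0319) and did not pass with any 1 array left out (0.0704 to 0.157). Rhoa, the GTPase that Ect2 activates, had a change of -0.18 ± 0.18 (limma adjusted p = 0.502), beside -2.78 for Ect2 itself. In the nuclear envelope, 2 of 5 fell. They were the lamin gene Lmnb2 (-1.34 ± 0.19; limma adjusted p = 0.00335) and the lamin B receptor gene Lbr (-0.85 ± 0.19; limma adjusted p = 0.0204), which did not pass with any 1 array left out (0.0502 to 0.123). Lmna, the A-type lamin gene, had -0.24 ± 0.18.

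**Figure D5:**
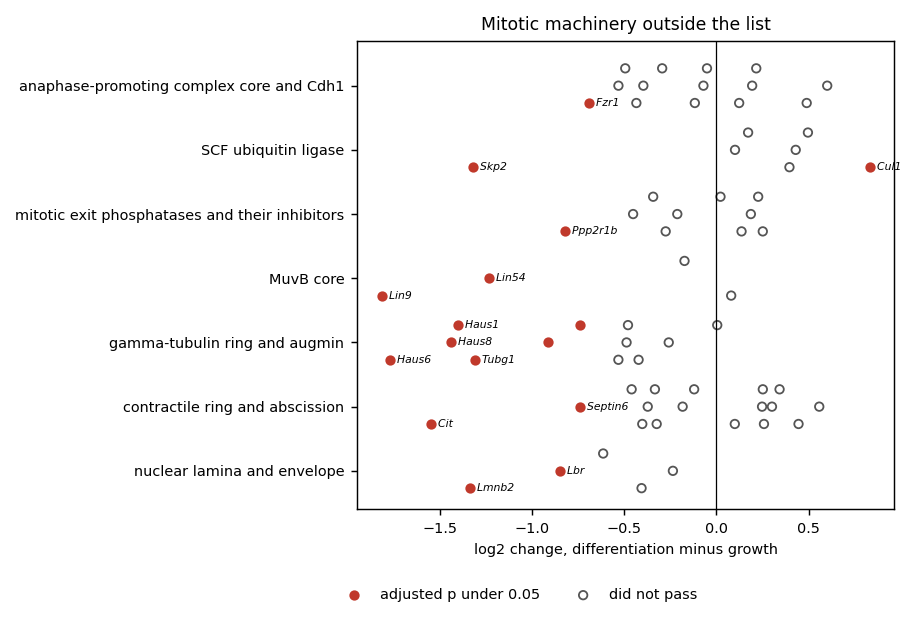
Log2 change, differentiation minus growth, of the 69 measured genes in 7 lists of mitotic machinery outside the member list, 1 point per gene, filled where the limma adjusted p was under 0.05. Filled points lie between -1.82 (Lin9) and -0.69 (Fzr1), apart from Cul1 at 0.83; vertical offsets within a list only separate the points.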

How the data were processed

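The authors deposited a linear intensity for each transcript cluster on each array, with PLIER and mouse build mm9 named in the submitters' processing notes. How background was corrected and arrays were scaled is not given in the sources used here. No depth applies to arrays, and the number of arrays, 2 per condition, limits the precision. By the platform annotation 14938 clusters carried 1 symbol, 989 several and 731 none. From the deposited intensities, log2(intensity + 16) was computed with no further normalization or filter. Conditions, taken from the sample titles, were compared in R 4.3.3 by limma 3.58.1, with eBayes moderation after lmFit (two-sided, Benjamini-Hochberg over all clusters, no covariate). An exact permutation of 2 arrays against 2 cannot go below p = 0.333. The members, lists and alternatives were chosen with earlier results of these data known, and lists are described by counts and medians only. Named are all measured members and, per further list, up to 4 genes past the threshold with the smallest adjusted p, all genes where a count was 5 or fewer, the cell type markers and, chosen after their values were seen, Lin37, Rbbp4, Haus2, Rhoa and Lmna. Older septin symbols were updated through RefSeq synonyms. On 16658 simulated clusters, with changes only in some of those above the median intensity, the test recovered 12% of 2-fold and 97% of 4-fold falls. Of its 112 calls, 3 were of unchanged clusters, and in a simulation with no change present it called 0. Far fewer clusters were changed than passed in the data, which makes the adjusted threshold stricter. These shares therefore do not give the power of the test in the data. RefSeq promoter windows were searched for both motifs on both strands. Same-numbered arrays of the conditions did not deviate together (r = -0.037 over clusters), so the numbers were not taken to pair them.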

Additional observations from a re-analysis of the deposited data

How the results depend on the processing

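The alternatives were quantile normalization, median centring, offsets of 1 and 64, leaving out the clusters below the 25th percentile of mean log2 intensity, an intensity trend in the variance prior, the replicate block, the mean of a gene's rows, each array left out, and, chosen after seeing the data, leaving out clusters listed at 0. The number of members that fell was 36 to 38 in all of them, and none rose. The calls of Cdc25b and Wee1 were lost with an offset of 1 (limma adjusted p = 0.0773 and 0.0530), and that of Cdc25b with the intensity trend (0.0520). The median change of the members was -2.09 with an offset of 64, which compresses dim values by construction, and -2.48 to -2.26 with 1 array left out. With the replicate block 38 members fell with the same median of -2.42, 15 machinery genes fell and 1 rose, and 1195 clusters were lower and 1369 higher, beside 1252 and 1439 without the block. With 1 array left out the change of Cks2 ran from -0.010 without differentiation replicate 1, its only array with a value above 1, to 0.73 without differentiation replicate 2, and with an offset of 1 it was 1.63; it did not pass in any alternative in which it was tested.

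Counts outside the members moved more, and the cause was not tested. With an offset of 1, 9 machinery genes fell and 0 rose, and 622 clusters were lower and 528 higher. With the intensity trend the numbers were 25 and 7 genes and 1947 and 2415 clusters. With an offset of 64, 4 machinery genes rose and 2201 clusters were higher, and without the dimmest clusters 2 machinery genes rose. With 1 array left out, 7 to 9 machinery genes fell and 0 to 1 rose, and 446 to 839 clusters were lower and 305 to 1189 higher; the condition left with 1 array was assumed to vary like the other. No cluster near the floor of the scale is informative about residual expression.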
